A study of Mus musculus with 12 samples.

Results

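The 39 genes described here are endothelial: receptors, ligands, junction and surface proteins, secreted proteins and transcription factors of blood vessels, sprouting tip cells and lymphatic vessels. They were chosen by name with earlier results of these data known, so their shares beside those of all genes are descriptive only. All 39 were among the 18193 genes measured. Their RNA was followed in whole tongues of embryonic day 13.5 mice (C57BL/6J), each hybridised to its own Affymetrix array. The 6 control samples had the genotype Myf5-Cre;Smad4flox/+ and the 6 mutant samples Myf5-Cre;Smad4flox/flox, so every sample carried the Cre transgene and at least 1 floxed copy of Smad4, and there was no sample without Cre. Smad4 is the mediator shared by TGF-β and BMP receptors. Cre is driven by Myf5, a gene of skeletal muscle precursors, so endothelial cells are not the lineage in which the deletion is aimed. Each value is the log2 signal of the gene's brightest probe set by its mean over the 12 arrays, and differences are mutant minus control with adjusted p values from limma over all genes.

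Endothelial cells line vessels and are steered by a few ligand and receptor pairs. VEGF-A acts through Kdr, with Flt1 as a decoy, and VEGF-C acts through Flt4 on lymphatic vessels. Angiopoietin 1, made by cells around the vessel, holds vessels stable through Tek, while angiopoietin 2 from activated endothelium loosens them. Tip cells lead a sprout and make Apln, Angpt2, Esm1 and Dll4, and ETS factors such as Erg and Fli1 and the SoxF factors Sox7, Sox17 and Sox18 maintain endothelial identity.

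The label was checked against the signal. Over the 12 arrays the 8 general endothelial markers Pecam1, Cdh5, Emcn, Cldn5, Tie1, Kdr, Egfl7 and Esam had means from 7.07 to 9.55, all above the median of all probe sets (6.13). Lymphatic signal was thin. Lyve1 (mean 5.18) and Prox1 (6.07), the defining factor of lymphatic cells, lay under that median, and Flt4, Sox18 and Pdpn, which lay above it, are also made by other cells. Of the tip cell genes Esm1 (5.83) lay under it. Whole tongue RNA was measured, so a change in the number of endothelial cells and a change in RNA per cell cannot be told apart. Smad4 read 12.29 ± 0.07 (SD, n = 6) in controls and 12.14 ± 0.27 in mutants (adjusted p = 0.427), with mutant 1 lowest at 11.58, and its probe sets are not known to lie in the deleted part. Some arrays stood apart. On the first principal component mutants 1 and 2 (24.7 and 20.3) lay beyond the other mutants (2.90 to 14.8) and all controls (below 0). Control 3, mutant 4 and mutant 6 had signal from both Xist and Y-linked genes. Calls of named genes that ended without these sets of arrays are given beside them, or for Csf1r as a count of alternatives.

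Of the 39 members, 6 were higher in the mutant and none was lower. The risers were Erg, Cd34, Lmo2, Sox18, Angpt1 and Apln, with increases of 1.16-fold to 1.38-fold. This is 15.4% of the members higher, beside 6.30% of all genes, and 0% lower, beside 4.80% of all genes; in either direction 11.1% of all genes passed. At an unadjusted p under 0.05, 10 members were higher and 2 lower (30.8%, beside 24.8% of all genes). The mutant mean lay above the control mean for 23 members (59.0%, beside 52.9% of all genes). The median difference over the members was 0.03 and over all genes 0.01. Without mutants 1 and 2, and likewise without control 3, mutant 4 and mutant 6, 1 member passed, Erg in both cases, while the genes that rose over the whole array numbered 379 and 440 in place of 1147. Without mutant 1 alone 3 members passed.

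**Figure D1:**
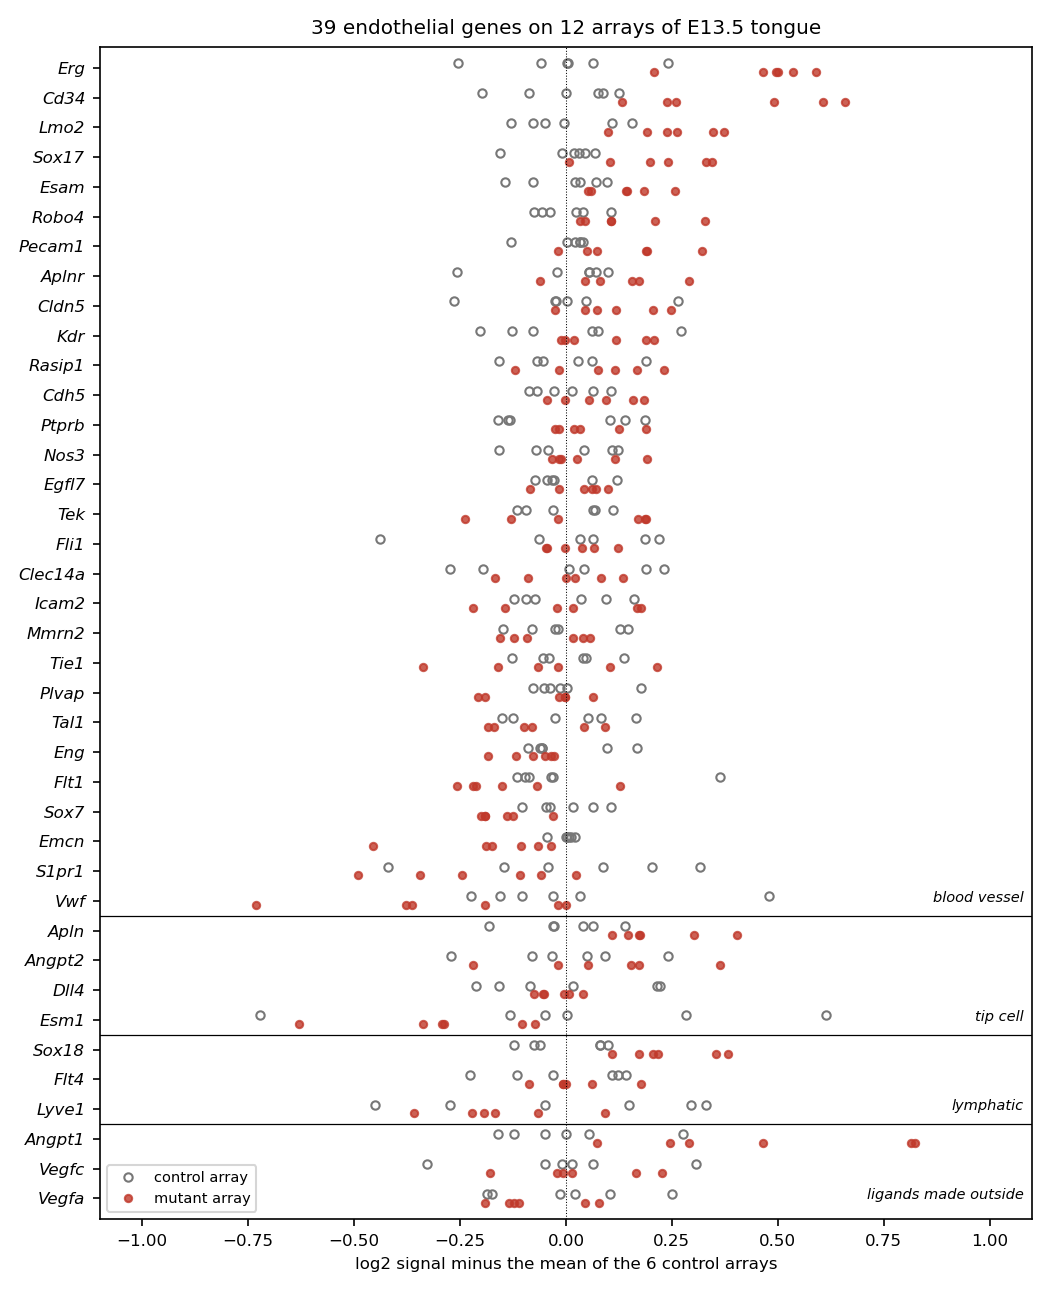
Signal of the 39 members on each array, as log2 signal minus the mean of the 6 control arrays (open grey, controls; red, mutants), by class and ordered by difference. Cd34 and Sox18 are the members whose 6 mutant arrays all lie above the 6 control arrays. All other members overlap.

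Transcription factors held 3 of the 6 risers, out of 7 factors (42.9% higher, beside 6.30% of all genes). Erg, an ETS factor that keeps endothelial junction genes active and is also made in cartilage precursors, rose most. Its log2 signal had a lowest, median and highest value of 7.73, 7.99 and 8.23 in controls and 8.20, 8.48 and 8.58 in mutants. Mutant 6, at 8.20, lay just under control 1, and the other 5 mutant arrays lay above every control. The difference was 0.47 ± 0.08 (SE; 1.38-fold, adjusted p = 0.00242). Erg passed under all 22 alternatives. In a fit over every probe set, where 5.40% passed, a dimmer second Erg probe set (5.65 in controls) gave 0.04 with an adjusted p of 0.872, and with the mean of both probe sets the difference was 0.25 (adjusted p = 0.0290).

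Lmo2, a LIM-only scaffold that works with Tal1 in blood and endothelial cells, ran from 8.65 to 8.94 in controls (median 8.75) and from 8.88 to 9.15 in mutants (median 9.03). 5 of 6 mutant arrays were above all controls. It rose by 0.25 ± 0.06 (SE; adjusted p = 0.0184). Its partner Tal1, which also drives red cell genes, ran from 6.71 to 7.02 in controls and from 6.67 to 6.95 in mutants, a difference of −0.07 (adjusted p = 0.606). Of 12 erythroid markers none passed, beside 11.1% of all genes. Only 1 had an unadjusted p under 0.05 (8.33%, beside 24.8% of all genes), and all 12 differences were below 0. The mean of these markers lay between −0.15 and 0.11 about the control mean on control arrays and between −0.25 and 0.10 on mutant arrays. Lmo2 lost its call without mutants 1 and 2 (0.22, adjusted p = 0.107) and without control 3, mutant 4 and mutant 6 (0.22, adjusted p = 0.116).

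Of the SoxF factors 1 of 3 passed, beside 11.1% of all genes. Sox18, which switches on the lymphatic programme, had 9.07, 9.21 and 9.30 as lowest, median and highest value in controls and 9.31, 9.41 and 9.58 in mutants, so the groups did not overlap. It rose by 0.24 ± 0.06 (SE; 1.18-fold, adjusted p = 0.0200). Sox17, a factor of arterial endothelium, ran from 7.71 to 7.94 in controls and from 7.87 to 8.21 in mutants, with 5 of 6 mutants above all controls, and differed by 0.20 ± 0.06 (adjusted p = 0.0529). Sox7 ran from 8.66 to 8.87 in controls and from 8.57 to 8.74 in mutants, with 5 of 6 mutants below all controls, a difference of −0.15 ± 0.05 (adjusted p = 0.0685). Sox18 lost its call without mutant 1 (0.22, adjusted p = 0.0516), without mutants 1 and 2 (0.24, 0.0548) and without control 3, mutant 4 and mutant 6 (0.23, 0.0894). Sox17 passed when dim genes were left out (adjusted p = 0.0346) and with array weights (0.0441). Sox7 passed when dim genes were left out (0.0397), with array weights (0.0489) and after quantile normalisation (−0.17, 0.0317). A dim second Sox7 probe set (4.72 in controls) differed by 0.08, and with the mean of both probe sets Sox7 differed by −0.03 (adjusted p = 0.696). Fli1, the ETS factor most like Erg, differed by 0.02 (adjusted p = 0.916), and its second probe set by −0.02.

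**Figure D2:**
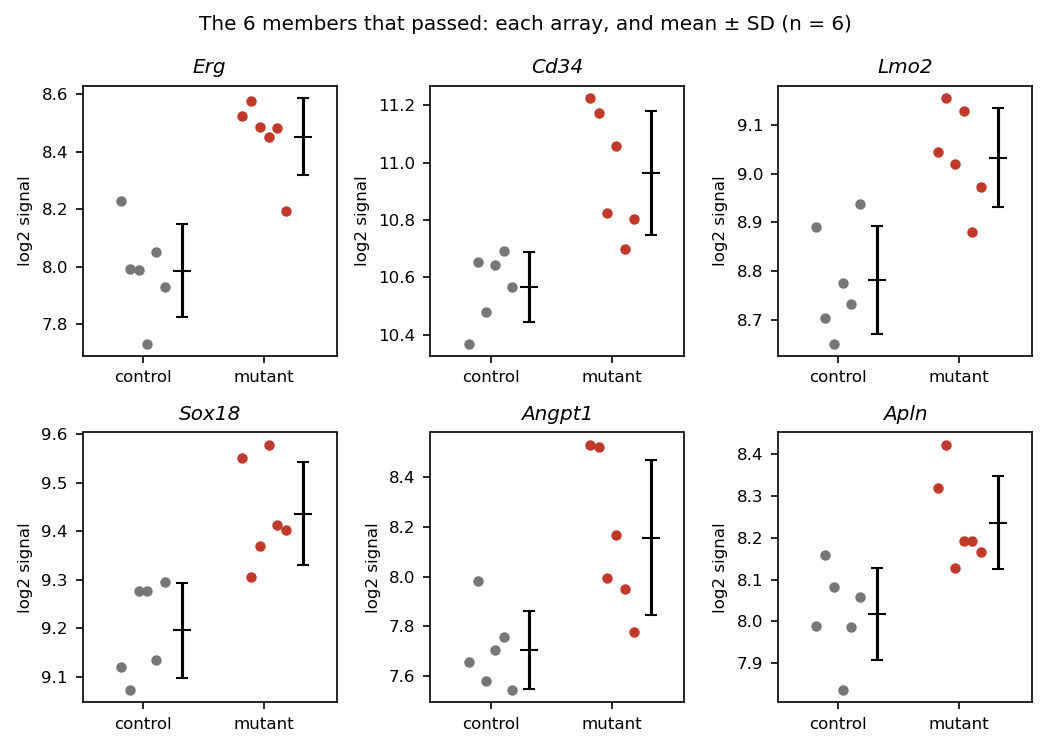
Log2 signal of the 6 members that passed, each array as a point (grey, controls; red, mutants) beside the mean and SD of its group (n = 6); each axis has its own range. Erg, Lmo2, Angpt1 and Apln overlap between the groups, Cd34 and Sox18 do not.

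Promoter sequence was at hand for 20 of the 39 members, taken from RefSeq (GRCm38.p6) as the 250 bases before the most upstream annotated start of the gene. Those of the risers with a sequence (Apln, Cd34 and Erg) are shown with Emcn, the member with most of its mutant arrays below the controls among those with a sequence. Capitals mark matches on either strand to the ETS motifs CCGGAA and AGGAAG, the combined FOX and ETS motif AACAGGAA, which can overlap AGGAAG, the SOX motif AACAAT or the GATA motif AGATAA.
Apln (chrX:48034854-48035103, minus strand): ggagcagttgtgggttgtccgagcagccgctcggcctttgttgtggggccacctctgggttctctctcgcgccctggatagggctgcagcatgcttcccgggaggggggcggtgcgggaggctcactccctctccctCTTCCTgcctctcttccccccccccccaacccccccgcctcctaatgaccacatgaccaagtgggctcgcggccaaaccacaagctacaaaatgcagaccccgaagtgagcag
Cd34 (chr1:194938571-194938820, plus strand): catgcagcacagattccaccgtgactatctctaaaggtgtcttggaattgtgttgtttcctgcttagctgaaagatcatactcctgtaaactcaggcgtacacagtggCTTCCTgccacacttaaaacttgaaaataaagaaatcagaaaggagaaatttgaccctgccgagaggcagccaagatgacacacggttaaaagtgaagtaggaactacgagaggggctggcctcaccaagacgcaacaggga
Erg (chr16:95586594-95586843, minus strand): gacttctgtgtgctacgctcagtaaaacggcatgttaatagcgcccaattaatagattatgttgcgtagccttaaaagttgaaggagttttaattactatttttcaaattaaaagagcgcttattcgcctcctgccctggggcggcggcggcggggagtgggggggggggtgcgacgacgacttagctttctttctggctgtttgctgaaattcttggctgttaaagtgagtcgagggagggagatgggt
Emcn (chr3:137340828-137341077, plus strand): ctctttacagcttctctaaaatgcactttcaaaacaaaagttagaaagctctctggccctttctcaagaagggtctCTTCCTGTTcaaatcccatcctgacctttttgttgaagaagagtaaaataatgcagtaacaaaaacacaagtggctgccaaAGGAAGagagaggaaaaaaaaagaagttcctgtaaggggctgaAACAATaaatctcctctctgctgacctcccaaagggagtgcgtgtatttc
Erg, itself an ETS factor, held no match in the window before this start, which is 1 of 3 annotated, while Cd34 and Apln held 1 AGGAAG each, on the strand opposite the gene, at positions −142 and −113 from the start. Emcn held 2 AGGAAG, 1 of them overlapping the AACAGGAA match, and 1 match to the SOX motif. The motif AGGAAG was found in 9 of the 20 member promoters (45.0%) and in 29.1% of the 26994 promoters of the table, a CCGGAA match in 1 of 20 and 12.2%, and either ETS motif in 10 of 20 and 38.0%. AACAGGAA was in 2 of 20 (2.15% of all), AACAAT in 2 of 20 (9.62%) and AGATAA in 2 of 20 (10.2%). Matches to such short motifs describe the letters only.

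Among the 5 ligands Angpt1 and Apln rose (40%, beside 6.30% of all genes) and the VEGF genes did not pass. Angpt1, the ligand of Tek made by mesenchymal and mural cells, had 7.54, 7.68 and 7.98 in controls and 7.78, 8.08 and 8.53 in mutants as lowest, median and highest value. Mutants 1 and 2 were highest (8.53 and 8.52), and 4 of 6 mutants lay above all controls. The difference was 0.45 ± 0.13 (SE; 1.37-fold, adjusted p = 0.0337), and 0.27 without mutants 1 and 2 (adjusted p = 0.137). Its dim second probe set (4.25 in controls) rose by 0.21 in the fit over every probe set (adjusted p = 0.0418), where the brightest did not pass (0.0535). Leaving out 1 array ended the Angpt1 call in 8 of 12 cases, and it also ended without control 3, mutant 4 and mutant 6. Angpt2, its antagonist, ran from 6.29 to 6.80 in controls and from 6.34 to 6.92 in mutants and differed by 0.08 (adjusted p = 0.665).

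Apln, the peptide that tip cells send to Aplnr on neighbouring endothelium, ran from 7.84 to 8.16 in controls (median 8.02) and from 8.13 to 8.42 in mutants (median 8.19). The lowest mutant array overlapped the controls. It rose by 0.22 ± 0.06 (SE; adjusted p = 0.0418), the call closest to the threshold. The call ended in 9 of 12 cases with 1 array left out, and without mutants 1 and 2 (0.15, 0.218). It also ended without control 3, mutant 4 and mutant 6, without control 6 and mutant 6, and with arrays centred on their medians (0.22, 0.0684). In the fit over every probe set the only Apln probe set did not pass (adjusted p = 0.0744). Aplnr, its receptor, differed by 0.11 (adjusted p = 0.357), with 3 of 6 mutants above all controls, and by 0.06 without its low array, control 3. Vegfa, the main angiogenic ligand, ran from 7.63 to 8.06 in controls and from 7.63 to 7.89 in mutants (−0.07, adjusted p = 0.626). Vegfc, the lymphatic ligand, ran from 8.13 to 8.76 and from 8.28 to 8.68 (0.03, adjusted p = 0.871), and its other probe sets differed by 0.15 and 0.21 without passing. Of 16 genes known to respond to low oxygen, as Vegfa does, 1 rose and none fell (6.25%, beside 11.1% of all genes). Their median was −0.03, and the riser was the glucose transporter Slc2a1 (0.31, adjusted p = 0.0247). Slc2a1 lost its call without mutant 1 (adjusted p = 0.0617) without 4 other single arrays, and without mutants 1 and 2 (0.23, 0.150).

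None of the 10 receptors and receptor partners passed, beside 11.1% of all genes. Only 1, Robo4, had an unadjusted p under 0.05 (10%, beside 24.8% of all genes). Differences ran from −0.20 for S1pr1, the sphingosine 1-phosphate receptor that restrains sprouting, to 0.14 for Robo4, a guidance receptor of quiet vessels, and their median was 0.03. Kdr, the main VEGF receptor, ran from 8.89 to 9.37 in controls and from 9.09 to 9.31 in mutants (0.09, adjusted p = 0.541; 95% interval −0.08 to 0.25). Flt1 ran from 7.49 to 7.96 and from 7.34 to 7.73 (−0.13, adjusted p = 0.402). Control 3 was the high Flt1 array, without which the difference was −0.06 (adjusted p = 0.683), and 4 of 6 mutants lay below all controls. All 4 Flt1 probe sets pointed down, from −0.20 to −0.07, and none passed. Flt4, the VEGF-C receptor, differed by 0.02 (adjusted p = 0.879) and its dimmer probe set by −0.14.

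The angiopoietin receptor Tek ran from 7.21 to 7.43 in controls and from 7.08 to 7.51 in mutants. Its mutants split, 3 above and 2 below all controls, and the means differed by 0.03 (adjusted p = 0.880). Tie1, the partner of Tek, differed by −0.04 (0.804), and Ptprb, the phosphatase that restrains Tek, by 0.05 (0.707). Eng, a co-receptor of the endothelial BMP and TGF-β pathway to which Smad4 belongs, ran from 9.44 to 9.70 and from 9.34 to 9.50 (−0.08, adjusted p = 0.385).

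**Figure D3:**
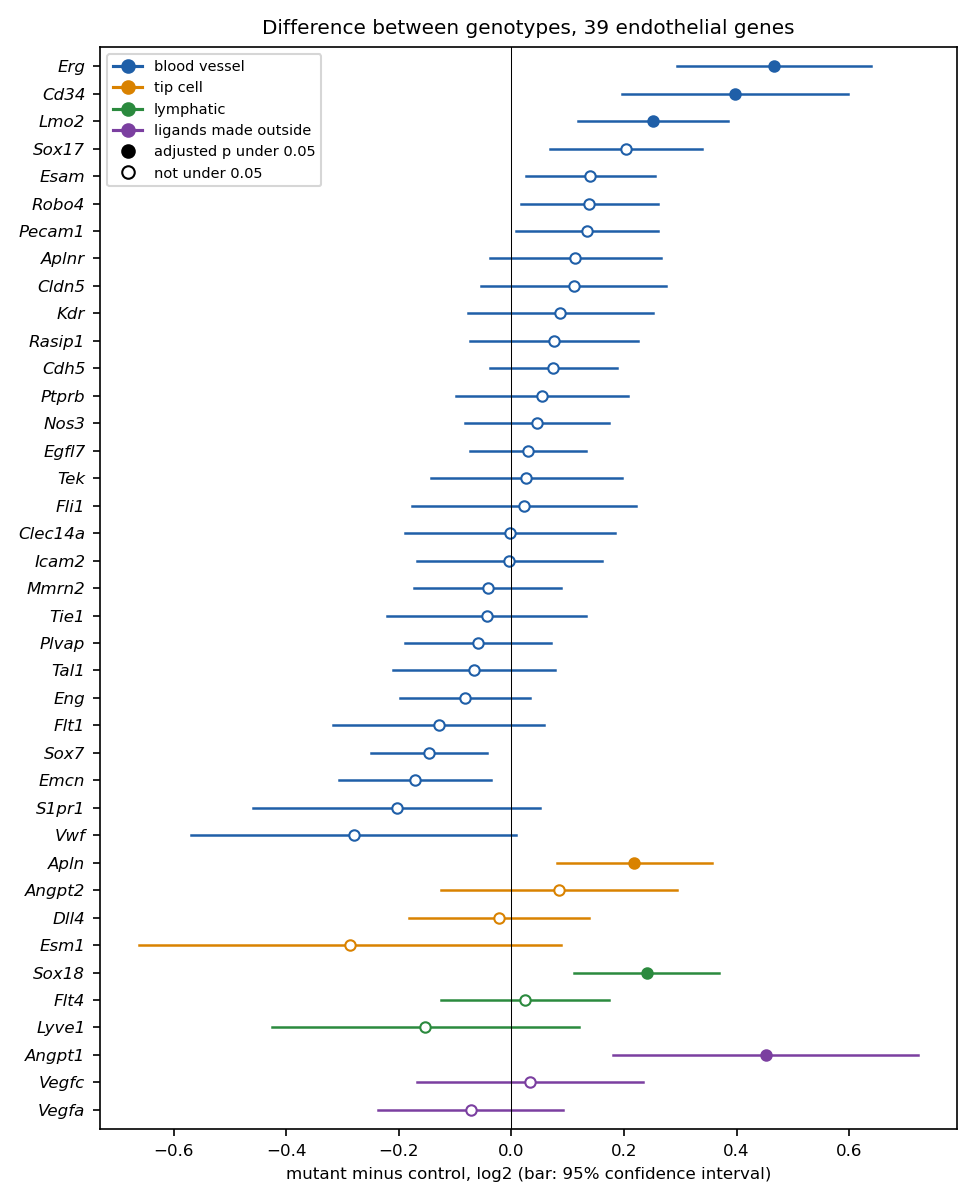
Difference between genotypes for each member (mutant minus control, log2) with its 95% confidence interval, coloured by class; filled points passed at an adjusted p under 0.05 over all genes. The 6 filled points lie between 0.22 and 0.47, and the intervals of 27 of the 33 open points cover 0.

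Of the 9 junction and surface proteins 1, Cd34, passed (11.1%, the same share as the 11.1% of all genes). Cd34, a sialomucin of capillary endothelium that is also carried by blood progenitors and connective tissue cells, had 10.37, 10.60 and 10.69 as lowest, median and highest value in controls and 10.70, 10.94 and 11.23 in mutants. The groups did not overlap, though mutant 5 (10.70) was level with the highest control (10.69), and mutants 1 and 2 were highest. It rose by 0.40 ± 0.09 (SE; 1.32-fold, adjusted p = 0.0144). The call held with each array left out in turn and ended without mutants 1 and 2 (0.28, 0.0770) and without control 3, mutant 4 and mutant 6 (0.40, 0.0784). Cd34 and Sox18 were the members without overlap, 5.13% of the 39, beside 6.30% of all genes.

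The junction proteins proper stayed closer to 0. Pecam1, the platelet endothelial adhesion molecule, ran from 8.24 to 8.41 in controls and from 8.35 to 8.69 in mutants, with 5 of 6 mutants above all controls (0.13, adjusted p = 0.173). Cdh5, the cadherin of endothelial junctions, ran from 9.43 to 9.62 and from 9.47 to 9.70 (0.07, adjusted p = 0.429). Esam, a junction adhesion molecule, differed by 0.14 (0.115) and Cldn5, the claudin of tight vessels, by 0.11 (0.418; 0.06 without control 2). Icam2 (−0.00, 0.985) and Clec14a (−0.00, 0.988) were the members nearest to 0, and Plvap, which forms the diaphragms of fenestrae, differed by −0.06 (0.608).

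Emcn, a sialomucin of veins and capillaries, was held tightly in controls, from 9.19 to 9.25, and ran from 8.77 to 9.19 in mutants. Mutant 6 was lowest, and 5 of 6 mutants lay below all controls. The difference was −0.17 ± 0.06 (SE; adjusted p = 0.103), and Emcn passed after quantile normalisation (−0.19, adjusted p = 0.0473). Under that scaling Emcn and Sox7 were 2 members lower beside 6 higher, in place of none and 6.

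The remaining tip cell and lymphatic genes and the secreted and intracellular proteins gave no calls. Esm1, a secreted proteoglycan of tip cells, spread widely in controls, from 5.25 to 6.59, against 5.34 to 5.90 in mutants (−0.29 ± 0.17 SE, adjusted p = 0.345), a difference of −0.16 without control 2 and −0.43 without control 5. Dll4, the Notch ligand of tip cells and arteries, ran from 6.08 to 6.52 and from 6.22 to 6.34 (−0.02, adjusted p = 0.894). Lyve1, a hyaluronan receptor of lymphatic vessels and of some macrophages, ran from 4.81 to 5.59 and from 4.90 to 5.35 (−0.15, adjusted p = 0.514; −0.09 without control 1 or control 3, −0.24 without control 2), and its other probe set differed by −0.38 (0.229 over all probe sets). Of the 4 tip cell members 1 rose (25%), and of the 3 lymphatic members 1 rose (33.3%). Of the 29 blood vessel members 3 rose (10.3%), beside 6.30% of all genes for each class. Their medians, in that order, were 0.03, 0.02 and 0.03. Of the 3 ligands made outside the endothelium (Vegfa, Vegfc and Angpt1) 1 rose (33.3%, beside the same 6.30%). Vwf, the clotting factor carrier stored in endothelium and platelets, ran from 6.39 to 7.10 and from 5.88 to 6.62 (−0.28 ± 0.13, adjusted p = 0.217; −0.18 without its high array, control 6). Among 8 platelet markers none passed, beside 11.1% of all genes, and 1 had an unadjusted p under 0.05 (12.5%, beside 24.8%). Nos3, the endothelial nitric oxide synthase, differed by 0.05 (0.707), Rasip1, which is needed to open vessel lumens, by 0.08 (0.561), Egfl7, a secreted vessel protein, by 0.03 (0.778) and Mmrn2, an endothelial matrix protein, by −0.04 (0.737).

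The calls differed in how far they depended on single arrays. Erg stayed under 0.05 in all 22 alternatives, Cd34 and Lmo2 with any 1 array left out, and Sox18 with any but mutant 1, while Angpt1 and Apln sat close to the threshold. The fit of every probe set on its own is not among the 22, and there the second Erg probe set did not pass.

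**Figure D4:**
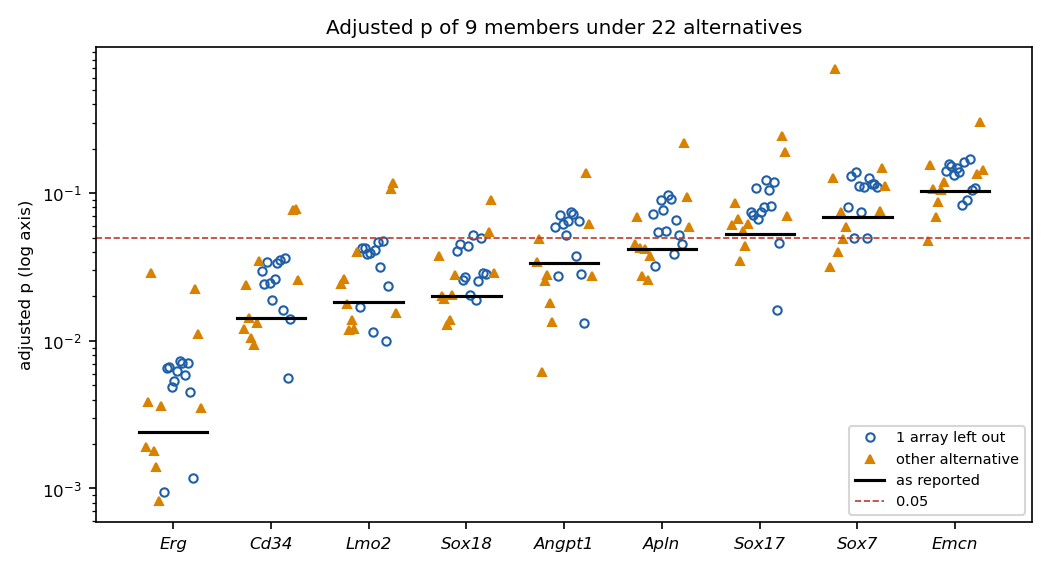
Adjusted p (log axis) of the 6 members that passed and of Sox17, Sox7 and Emcn under 22 alternatives: circles leave out 1 array, triangles are the other alternatives, black bars are the values as reported and the dashed line is 0.05. Erg lies below the line in all 22, Cd34 and Lmo2 in 20, Sox18 in 19, Angpt1 in 12 and Apln in 9.

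The arrays set a limit on what the 33 members that did not pass can say. For 31 of them the 95% interval lay within 0.5 of 0 on the log2 scale (1.41-fold), and for 19 within 0.25 (1.19-fold). The other pair were Esm1 and Vwf, with intervals from −0.66 to 0.09 and from −0.57 to 0.01. In simulated data with equal spread in both groups the test found 27% of genes changed by 0.25, 82% of those changed by 0.5 and 100% of those changed by 1. Far fewer genes were changed there than passed in the real data, which makes the adjusted threshold stricter. These rates therefore need not hold for the real fit.

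Genes of the same pathways that are not members changed in both directions. Of 10 other VEGF pathway genes 1 rose and 1 fell (20%, beside 11.1% of all genes in either direction). Vegfd, another ligand of Flt4, went from 9.07 ± 0.12 (SD, n = 6) to 9.64 ± 0.34 and lay above every control on 6 of 6 mutant arrays (0.57, adjusted p = 0.0118), and Shb, an adaptor of Kdr signalling, fell by 0.37 (0.00422). Of 28 other vessel signals 7 rose and 4 fell (39.3%, beside 11.1% of all genes), with a median of 0.12. Sema3e, which repels vessels through Plxnd1, fell from 7.13 ± 0.36 to 5.85 ± 0.53, the largest difference in the pathway lists (−1.28 ± 0.23 SE, adjusted p = 0.00287; −0.70 with the mean of its probe sets). Cxcl12, a chemokine of perivascular mesenchyme, rose by 0.64 (adjusted p = 0.00886) and its receptor Cxcr4 fell by 0.22 (0.0237). A dimmer Cxcl12 probe set differed by −0.04. Angptl4, a lipase inhibitor, rose by 0.66 (0.00215), and its other probe set differed by 0.07.

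Of 16 genes of arteries and veins 3 rose and 1 fell (25%, beside 11.1% of all genes). Efnb2, Ephb4 and Cxcr4 were also counted among the vessel signals above, so these calls are not separate results. The arterial ligand Efnb2 rose by 0.34 (adjusted p = 0.00248) and its venous receptor Ephb4 by 0.23 (0.0214). The dimmer Efnb2 probe sets differed by 0.40, which passed, and by 0.13 and 0.00, which did not. The Notch ligand Jag1 rose by 0.35 (0.0116). Its other probe sets did not pass on their own, and with the mean of its probe sets it rose by 0.36 (adjusted p = 0.0222). Cxcr4, Ephb4 and Jag1 lost their calls both without mutants 1 and 2 (adjusted p = 0.143, 0.121 and 0.0711) and without control 3, mutant 4 and mutant 6 (0.0978, 0.115 and 0.0810). Cxcr4 also lost its call without control 2, control 4, control 5, mutant 1 or mutant 2 (adjusted p up to 0.0582), and Ephb4 without control 4 (0.0524) or mutant 1 (0.0535).

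Of 13 other lymphatic genes 2 rose and 2 fell (30.8%, beside 11.1% of all genes). Prox1, which is also made in muscle and nerve, went from 6.31 ± 0.24 to 5.83 ± 0.21 (−0.48, adjusted p = 0.0173). It lost its call under 3 of 21 alternatives, none of them with 1 array left out. Among these were leaving out mutants 1 and 2 (−0.47, 0.0713) and leaving out control 3, mutant 4 and mutant 6 (−0.42, 0.0825). Its other probe sets did not pass on their own, and with the mean of its probe sets the difference was −0.33 (adjusted p = 0.00639). Itga9, an integrin of lymphatic valves and of muscle, fell by 0.39 (0.00287). Foxc2, a valve factor that is also a mesenchymal gene, rose by 0.47 (0.00733), and Gja1, a gap junction protein of many cells, by 0.28 (0.0150). Without control 3, mutant 4 and mutant 6 the calls of Foxc2 (0.0526), Gja1 (0.0689) and the VEGF adaptor Shb (0.0552) ended, and without mutants 1 and 2 that of Gja1 (0.0986). Of 46 other genes listed as endothelial, Tie1 among them, 4 rose and 5 fell (19.6%, beside 11.1% of all genes), and their median was 0.06. Slc2a1, counted above with the low-oxygen genes, was among these risers. This list was not checked for genes that other cells also make. Thbd, the thrombin receptor of vessel walls, fell from 9.56 ± 0.15 to 8.93 ± 0.10 (−0.63 ± 0.07 SE, adjusted p = 0.000329), below every control on 6 of 6 mutant arrays and past the threshold under all 22 alternatives. Ablim3 (−1.05) and Afap1l1 (−0.47), actin-binding proteins, also fell, and the ETS factor Ets2 rose by 0.33 (0.000993; 0.17 with the mean of its probe sets, adjusted p = 0.0799).

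Markers of several other cell types changed in the same arrays. The share of each list that passed in either direction stands beside 11.1% of all genes. Of 14 cranial mesenchyme markers 8 rose and 2 fell (71.4%), led by Dlx5 (0.68) and Prrx1 (0.61). Their mean lay between −0.08 and 0.05 on control arrays and between 0.10 and 0.35 on mutant arrays. Mutants 1 and 2 were highest for it (0.35 and 0.34), as they were for Erg, Cd34, Angpt1 and Apln. Mutants 2 and 4 were highest for Lmo2 and mutants 1 and 4 for Sox18. Mutants 1 and 2 were also highest for the means of the macrophage, oral epithelium and neuron markers and on the first principal component. Their rank therefore does not single out mesenchyme. All 14 macrophage markers lay above 0, and 1 passed (7.14%), Csf1r (0.21, adjusted p = 0.0376, a call that ended under 13 of 22 alternatives). Of 12 pericyte and smooth muscle markers 5 fell and none rose (41.7%), led by Tagln (−0.92) and Acta2 (−0.45). They did not all point down, as 3 of the 12 differences lay above 0, up to 0.55, without passing. Of 13 skeletal muscle markers 12 fell (92.3%), led by Myf5 (−1.81) and Myh8 (−1.39). Of 12 oral epithelium markers 6 rose (50%), among them Cldn4 (0.46) and Esrp1 (0.39). Esrp1 did not pass without mutants 1 and 2 (adjusted p = 0.0879) or without control 3, mutant 4 and mutant 6 (0.0744). Of 11 neuron markers 10 rose (90.9%), led by Snap25 (1.51) and Tubb3 (0.89). The mean of the 29 blood vessel members, by contrast, ran from −0.04 to 0.07 on control arrays and from −0.05 to 0.13 on mutant arrays, with mutant 1 highest. The part of these other cells in the rises of Erg, Cd34, Lmo2, Sox18, Angpt1 and Apln was not tested.

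**Figure D5:**
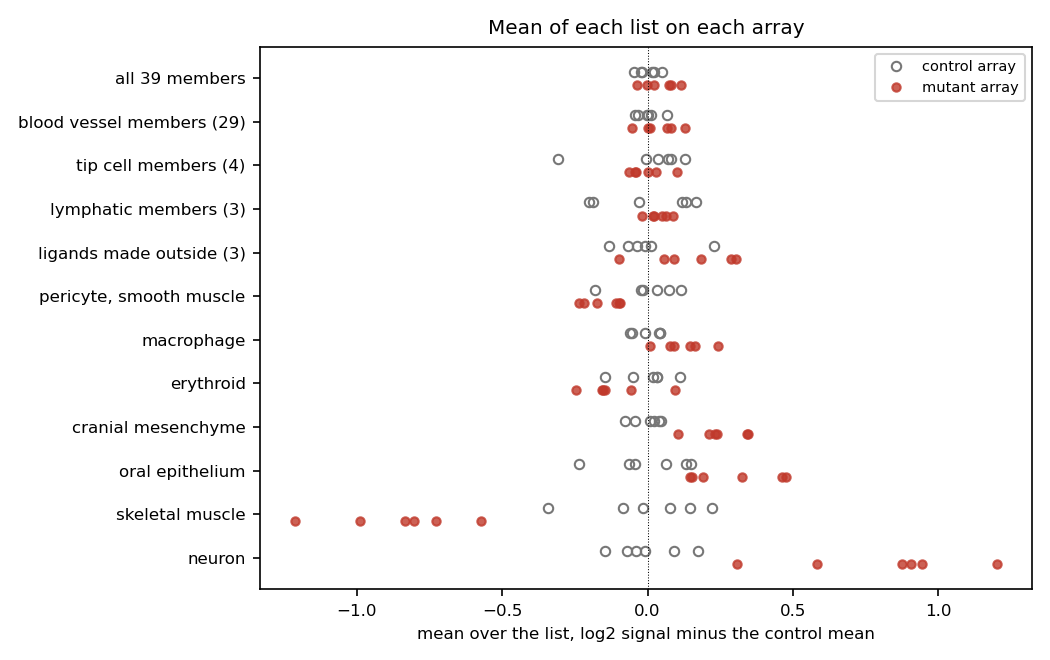
Mean of each gene list on each array, as log2 signal minus the control mean (open grey, controls; red, mutants). The means of the blood vessel members overlap between genotypes, from −0.05 to 0.13 on mutant arrays, while those of skeletal muscle, neuron and cranial mesenchyme markers do not.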

How the data were processed

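RNA from 6 control and 6 mutant embryonic tongue samples was measured on 12 arrays. RMA is the tool that the submitters' processing notes name, and the deposited log2 signals per probe set run from 2.57 to 15.09. The software version and log base were not stated, and base 2 was taken from that range. RMA brings the arrays to nearly one distribution and compresses changes of dim probe sets. Of 45101 probe sets, 64 controls were left out. By the platform annotation, 34945 probe sets have 1 symbol, 932 have several and 9160 lack one. Each of 18193 genes was read from its brightest single-symbol probe set, and 19 members have several. The genotype test was limma's (version 3.58.1, R 4.3.3; eBayes, 2-sided, Benjamini-Hochberg over all genes, threshold 0.05). Labels call the samples biological replicates; litter and batch are not given. Named genes outside the members are up to 4 passing genes of each pathway list and 2 of each cell type list, by smallest p, and Smad4. The members, lists and arrays left out in sets were chosen with earlier results of these data known. Alternatives were quantile normalisation, centring, leaving out dim genes, the mean of or every probe set, a replicate block, array weights, trended robust variance, and leaving out arrays singly or in sets. Array numbers limit the precision, and no counting depth exists. The test was checked on simulated data.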

Additional observations from a re-analysis of the deposited data

Results flagged for a closer look

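In groups of 6 arrays, an array was singled out when its gap to the nearest other array exceeded Dixon's 95% limit as a share of the group's range, which chance passes in about 1 of 20 groups. Among the members this held for 9 of 78 groups, and among all genes named for 12 of 138. Control 3 was high for Flt1 (7.96, next 7.57) and low for Aplnr (11.78, next 12.01), Sox17 (7.71, next 7.86) and Jag1 (10.68, next 10.96). Control 2 was low for Pecam1 (8.24, next 8.37) and control 4 for Emcn (9.19, next 9.23). Control 1 was high for Plvap (9.66, next 9.48) and low for Acta2 (14.02, next 14.11), and control 6 was high for Vwf (7.10, next 6.65). Mutant 6 was low for Emcn (8.77, next 9.04) and Erg (8.20, next 8.45), and mutant 1 for Smad4 (11.58, next 12.18).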

How the results depend on the processing

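Each member was recomputed under 22 alternatives, or 21 for the dim Esm1 and Lyve1, with the fit of every probe set counted apart. Erg kept its call under all 22, Cd34 and Lmo2 under 20, Sox18 under 19, Angpt1 under 12 and Apln under 9, all with the same sign. Of members not called, Sox7 passed under 5, Sox17 under 4 and Emcn under 1. Members higher numbered 1 without mutants 1 and 2, 1 without control 3, mutant 4 and mutant 6, and 3 to 7 with 1 array left out. Members lower numbered 2 after quantile normalisation, 1 without dim genes, 1 with array weights, and 0 to 1 with 1 array left out (1 without control 3 or mutant 2). Over all genes, 379 rose and 496 fell without mutants 1 and 2, 440 rose and 396 fell without control 3, mutant 4 and mutant 6, and 733 to 1209 rose and 665 to 899 fell with 1 array left out (733 rose without mutant 1 and 763 without mutant 2), with fewer samples tested. Same-numbered samples shared only a number (correlations of their deviations from −0.06 to 0.24, the highest for 3 of 6 numbers), and with the replicate number as a block, 6 members and 1047 genes rose, 885 genes fell, and no member's call changed. Single probe sets of Cxcl12 (−0.040), Ets2 (−0.033) and Prrx1 (−0.0030) turned against the brightest. Scaling turned no member's sign. The cause of lost calls was not tested.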
